A study of Arabidopsis with 12 samples.

Results

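Untreated *wlim2a-1* seedlings were compared with WT seedlings treated with flg22, gene by gene, to see which parts of the flg22-treated WT state were present in the mutant without the peptide and which were missing. The comparison covered 18981 of the 27371 genes in the table, those that reached 1 FPKM (fragments counted per kilobase of a transcript and scaled to the fragments mapped) in either of the 2 conditions. RNA was sequenced from 14-day-old whole Arabidopsis seedlings of WT (Col-0) and of *wlim2a-1*, a line free of Cas9 in which CRISPR-Cas9 had left a small frameshift insertion in *WLIM2A*. Only this 1 mutant line was sequenced. Seedlings were kept overnight in liquid medium and were then exposed for 1 h to flg22 at 1 µM, or to water as mock. WT flg22 and *wlim2a-1* mock had 3 biological replicates each, 6 of the 12 samples, and WT mock and *wlim2a-1* flg22 are given beside them.

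The authors had combined the replicates into 1 FPKM per gene and condition, so no value carries a standard deviation, a test or a p-value, and genotype and treatment both differ between the 2 conditions compared. Differences are log2 ratios of FPKM + 1 (*wlim2a-1* mock over WT flg22), a scale that compresses differences between low values. Genes are called higher or lower from a 2-fold difference in FPKM + 1 onward, always in untreated *wlim2a-1* relative to WT flg22 unless another pair is named. Where a single value is set against treated WT, it is that of untreated *wlim2a-1*. At the edge of the FPKM minimum, AT2G01175 was left out at 0.999653 FPKM in WT flg22 and AT5G54950 was compared at 1.00022 in *wlim2a-1* mock.

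flg22 is a peptide of bacterial flagellin, a pathogen-associated molecular pattern (PAMP), which plants sense with the receptor kinase FLS2 and its co-receptor BAK1. In pattern-triggered immunity (PTI), the kinase BIK1, a calcium influx, the oxidative burst by the NADPH oxidase RBOHD and the MAPKs MPK3, MPK4 and MPK6 lead to a rapid wave of transcripts, among them those of WRKY, ERF and zinc finger transcription factors and of the enzymes of indole glucosinolate defense. Salicylic acid (SA) and the pathogenesis-related genes *PR1*, *PR2* and *PR5* act in a slower layer of the same defense. WLIM2A belongs to the plant LIM proteins, which bind and bundle actin filaments.

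The column of *wlim2a-1* mock stood apart from the other 3 before any single gene was considered. Chloroplast-encoded loci held 4.88% of its summed FPKM without the locus AT2G01021, against 1.27% to 1.92% in the other conditions. AT2G01021 itself held 28.9% of all FPKM in WT flg22 and 56.5% to 67.4% in the others, while the upper quartile of the genes compared lay between 20.3 and 21.8 FPKM in all 4. The study's methods name quartile normalization, which can by itself make upper quartiles alike, so these do not show that the columns are comparable. The 14 root markers summed to 336 FPKM in *wlim2a-1* mock and to 475 to 492 in the other conditions, none was at 0, and 13 of the 14 had a log2 ratio below 0. Without *RBCS1A* and *LHCB1.3*, the other 8 shoot markers summed to 115 to 146 FPKM across the conditions. Those of them that were compared had a median log2 ratio of 0.36, from −0.08 for *FDH* to 0.91 for *KAN1*. *RBCS1A* and *LHCB1.3* were listed at exactly 0 in both WT conditions and at 14401 and 29857 FPKM in *wlim2a-1* mock, although related genes were abundant in all 4 conditions, so no fold is given for them, and they are counted among the higher genes by the rule alone. Of the 10 pollen and seed markers, 2 reached 1 FPKM in each condition. In bulk seedlings, a different share of roots or leaves and a different RNA level per cell cannot be told apart, and with combined columns it cannot be seen whether 1 replicate or all 3 carried these differences. Their part in the results was not tested.

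*WLIM2A* itself had 12.6 FPKM in untreated and 11.6 in treated WT, and 10.9 in untreated and 6.20 in treated *wlim2a-1*. A transcript with a small insertion is still counted, so this level does not check the genotype labels.

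By their medians, the genes lower in untreated *wlim2a-1* were high in both flg22-treated conditions, and the genes higher in it were low in the other 3 conditions. In *wlim2a-1* mock, 927 genes (4.88% of those compared) were higher than in WT flg22 and 922 (4.86%) were lower, around a median log2 ratio of 0.06 over all genes compared. At 4-fold, 166 were higher and 246 were lower. Each column was also expressed relative to the mean of *ACT2* and *UBQ10*, both within 2-fold but higher in WT flg22. The median of all genes then moved to 0.65, and 91.6% of the called genes were higher, against 50.1% with the values as deposited. *UBQ10*, the more abundant, had 1008 FPKM in untreated and 1659.8 in treated WT, and 994 in untreated and 1601.5 in treated *wlim2a-1*. It was thus higher in both treated conditions, and this scaling lowers those columns relative to the mock ones. The lower genes had median levels of 8.32 FPKM in untreated and 30.01 in treated WT, and of 7.89 in untreated and 32.9 in treated *wlim2a-1*, so that they were high in both treated conditions. The median of the higher genes was 6.30 FPKM in untreated and 5.29 in treated WT, and 17.4 in untreated and 6.65 in treated *wlim2a-1*. By this median, untreated *wlim2a-1* alone was high. In both groups the 2-fold rule itself set the difference between *wlim2a-1* mock and WT flg22. Only the medians in WT mock and *wlim2a-1* flg22 are free of the rule. Of the higher genes, 65 were encoded in the chloroplast, 12 in the mitochondria and 850 in the nucleus.

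**Figure D1:**
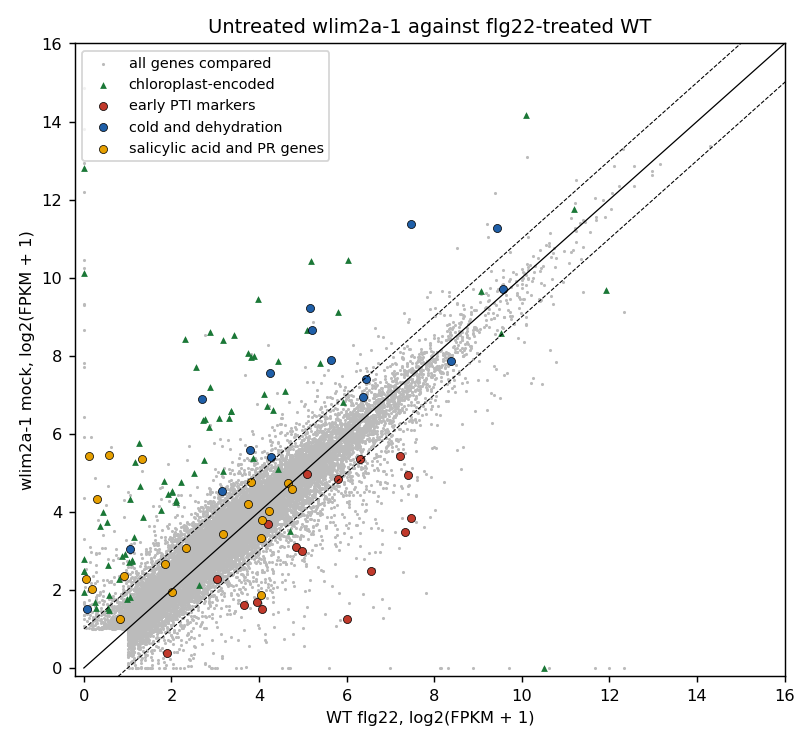
Level of each of the 18981 genes in WT flg22 (x axis) and *wlim2a-1* mock (y axis), both as log2(FPKM + 1), with 4 groups colored, the diagonal solid and the 2-fold limits dashed. Early PTI markers lie on or below the diagonal, while most cold and dehydration genes and most chloroplast-encoded loci lie above the upper limit.

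WT mock and *wlim2a-1* flg22, the other 2 conditions, share no sample with this comparison. Of the 922 genes lower in untreated *wlim2a-1*, 581 (63.0%) exceeded WT mock by 2-fold or more in *wlim2a-1* flg22 and 15 (1.63%) were below it, against 5.66% and 0.669% of all genes compared. Their median log2 ratio there was 1.49. Among the 246 genes that were at least 4-fold lower, 215 (87.4%) were higher in *wlim2a-1* flg22 than in WT mock. Of the 927 genes higher in untreated *wlim2a-1*, 73 (7.87%) were above WT mock in *wlim2a-1* flg22 and 24 (2.59%) below it, with a median log2 ratio of −0.04. Among the 166 genes that were at least 4-fold higher, 37 (22.3%) were above WT mock there and 7 (4.22%) below it, with a median of 0.22. Most of the genes high in untreated *wlim2a-1* were thus within 2-fold of the WT mock level in the mutant after 1 h of flg22. Read from the other side, 1075 genes were higher in *wlim2a-1* flg22 than in WT mock. Untreated *wlim2a-1* was below WT flg22 in 581 of them (54.0%), within 2-fold of it in 421 (39.2%) and above it in 73 (6.79%).

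**Figure D2:**
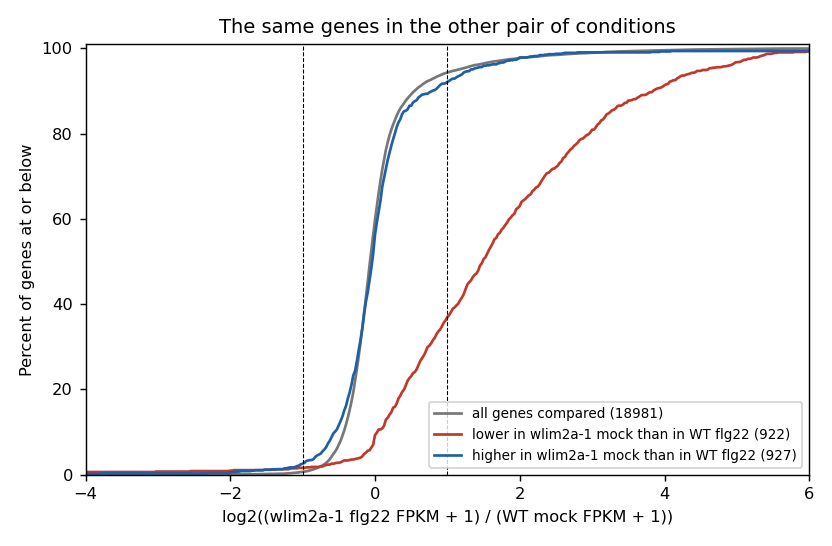
Cumulative percent of genes (y axis) at or below each log2 ratio of *wlim2a-1* flg22 over WT mock (x axis), for all 18981 genes compared, the 922 lower and the 927 higher in untreated *wlim2a-1*, with dashed lines at 2-fold. The curve of the lower genes is shifted to the right (median 1.49), and that of the higher genes (median −0.04) runs close to that of all genes (median −0.07).

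The early PTI markers, a part of the flg22-treated state that untreated *wlim2a-1* largely lacked, had the lowest median of the 25 lists. Of 17 compared, 12 were lower, none was higher, and the median log2 ratio was −1.996. The same list had a median of 2.25 in WT flg22 over WT mock, where 15 of 17 were higher (4.6% of all genes higher and 0.485% lower), and of 0.19 in *wlim2a-1* mock over WT mock, where 3 of 16 were higher (4.57% of all genes higher and 0.623% lower). These 2 comparisons share WT mock with each other and a column each with the main one, and are given side by side only. *CYP81F2*, which encodes a P450 that modifies indole glucosinolates, had 3.93 and 161 FPKM in WT without and with flg22, and 10.3 and 194 in *wlim2a-1* without and with it. Both treated conditions were high and both mock conditions were low, and the log2 ratio of untreated *wlim2a-1* over WT flg22 was −3.84. *PROPEP3*, the precursor of a danger peptide, had 4.18 (mock) and 93.6 (flg22) FPKM in WT, against 4.64 (mock) and 333 (flg22) in *wlim2a-1*. The peroxidase gene *PER4* reached 63.2 FPKM in WT flg22 and 1.37 in untreated *wlim2a-1* (log2 ratio −4.76). *SYP122*, a syntaxin of the plasma membrane, differed by −2.46, with 29.6 FPKM against 168 in treated WT. *FRK1*, the receptor kinase gene much used as a flg22 marker, was below the minimum in both conditions (0.405 FPKM, against 0.942 in WT flg22) and was not compared.

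Some early markers lay between WT mock and WT flg22 in untreated *wlim2a-1*. *EXO70B2*, a subunit of the exocyst, had 15.5 FPKM in untreated and 77.5 in treated WT, and 40.2 in untreated and 116 in treated *wlim2a-1*, which placed untreated *wlim2a-1* between the WT conditions. The deadenylase gene *CAF1A* was also intermediate, with 27.5 FPKM against 54.5 in treated WT and 17.2 in WT mock. AT1G26380 was above WT mock but still below WT flg22 by −3.61 on the log2 scale, with 0.473 and 175 FPKM in WT without and with flg22, and 13.5 and 299 in *wlim2a-1* without and with it.

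Transcription factor genes of the first wave were largely below the WT flg22 level. Of 18 rapid *WRKY* genes compared, 12 were lower and none was higher (median log2 ratio −1.18), and of 19 *ERF* and zinc finger genes 12 were lower and 1 was higher (median −1.30). *WRKY33*, a regulator of camalexin synthesis, had 10.7 (mock) and 171 (flg22) FPKM in WT, against 24.9 (mock) and 159 (flg22) in *wlim2a-1*. *WRKY40* had 2.32 FPKM in untreated and 52.5 in treated WT, and 5.33 in untreated and 56.3 in treated *wlim2a-1*. For both genes, untreated *wlim2a-1* lay above WT mock and far below the treated conditions, with log2 ratios of −2.73 and −3.08 to WT flg22. *WRKY29*, a target of flg22 signaling, had 9.33 and 31.7 FPKM in WT without and with flg22, and 6.05 and 40.5 in *wlim2a-1* without and with it, with untreated *wlim2a-1* the lowest of the 4. *WRKY30* had 0.590 FPKM against 17.0 in treated WT (log2 ratio −3.50). *ERF6*, a substrate of MPK3 and MPK6, had 29.4 (mock) and 195 (flg22) FPKM in WT, against 27.4 (mock) and 196 (flg22) in *wlim2a-1*, so the 2 untreated conditions were alike. The zinc finger genes *ZAT10* (−2.95) and *ZAT11* (−5.04) and the ERF gene *ERF105* (−2.84) were also lower by these log2 ratios.

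A few *WRKY* genes were instead at the WT flg22 level in untreated *wlim2a-1*. *WRKY18* had 9.34 FPKM in untreated and 24.0 in treated WT, and 28.4 in untreated and 22.8 in treated *wlim2a-1*, so that WT mock was low and the other 3 conditions were close together. *WRKY25* (6.73 and 18.8 FPKM in WT without and with flg22, and 16.03 and 21.02 in *wlim2a-1* without and with it) and *WRKY48* (2.56 (mock) and 7.05 (flg22) FPKM in WT, against 7.10 (mock) and 10.98 (flg22) in *wlim2a-1*) had the same pattern. *WRKY53* had 16.7 FPKM against 17.2 in treated WT and 8.68 in WT mock. *WRKY27* was within 2-fold by a small margin, at −0.996. The only factor of these lists at least 2-fold above WT flg22 was *ZAT7*, with 1.11 FPKM in untreated and 5.92 in treated WT, and 15.3 in untreated and 3.93 in treated *wlim2a-1*.

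Receptor genes differed in both directions. Of 22 pattern receptors and associated kinases, 5 were higher than in WT flg22, 5 were lower and 12 were within 2-fold (median log2 ratio −0.38). The median was 1.08 in WT flg22 over WT mock and 0.78 in *wlim2a-1* mock over WT mock. The genes for the core of the flagellin receptor complex went different ways. *FLS2* had 10.9 and 13.9 FPKM in WT without and with flg22, and 31.3 and 21.3 in *wlim2a-1* without and with it, with both mutant conditions above both WT conditions. Its log2 ratio to WT flg22 was 1.11, and 0.95, within 2-fold, when ratios were centered within classes of genes of like length. Its co-receptor *BAK1* had 15.1 (mock) and 33.0 (flg22) FPKM in WT, against 13.9 (mock) and 35.1 (flg22) in *wlim2a-1*, and the downstream kinase *BIK1* had 17.61 FPKM in untreated and 48.7 in treated WT, and 13.5 in untreated and 49.6 in treated *wlim2a-1*. Untreated *wlim2a-1* was the lowest condition for both, with log2 ratios of −1.19 and −1.78 to WT flg22. By contrast, *SERK4*, the closest relative of *BAK1* and a co-receptor itself, had 4.28 and 22.9 FPKM in WT without and with flg22, and 23.5 and 26.2 in *wlim2a-1* without and with it. Its WT mock value was low and the other 3 were alike, and the log2 ratio to WT flg22 was 0.03.

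Other receptor kinases repeated these patterns. *SOBIR1*, the partner kinase of receptor-like proteins, had 24.1 (mock) and 53.4 (flg22) FPKM in WT, against 81.9 (mock) and 80.8 (flg22) in *wlim2a-1*, and *CERK1*, a receptor kinase for chitin, had 10.4 FPKM against 11.96 in treated WT and 4.94 in WT mock. *RLP23*, the receptor-like protein that senses nlp20 peptides and signals through SOBIR1, was nearly absent from WT, with 0.0785 FPKM in untreated and 0.189 in treated WT, and 28.2 in untreated and 1.38 in treated *wlim2a-1*. The wall-associated kinase genes were also highest in untreated *wlim2a-1*, where *WAK1* had 50.5 FPKM against 4.29 in treated WT and *WAK2* had 48.2 FPKM against 9.11 in treated WT. The chitin receptor gene *LYK5* was higher by 1.01 on the log2 scale (0.98 after the same centering) and *LYK4* lower (−1.12). *WAKL10* behaved like an early marker, with 0.171 and 16.6 FPKM in WT without and with flg22, and 0.647 and 29.8 in *wlim2a-1* without and with it. The receptor kinase *FER* had the highest FPKM among the members within 2-fold, between 139 and 159 in all 4 conditions.

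**Figure D3:**
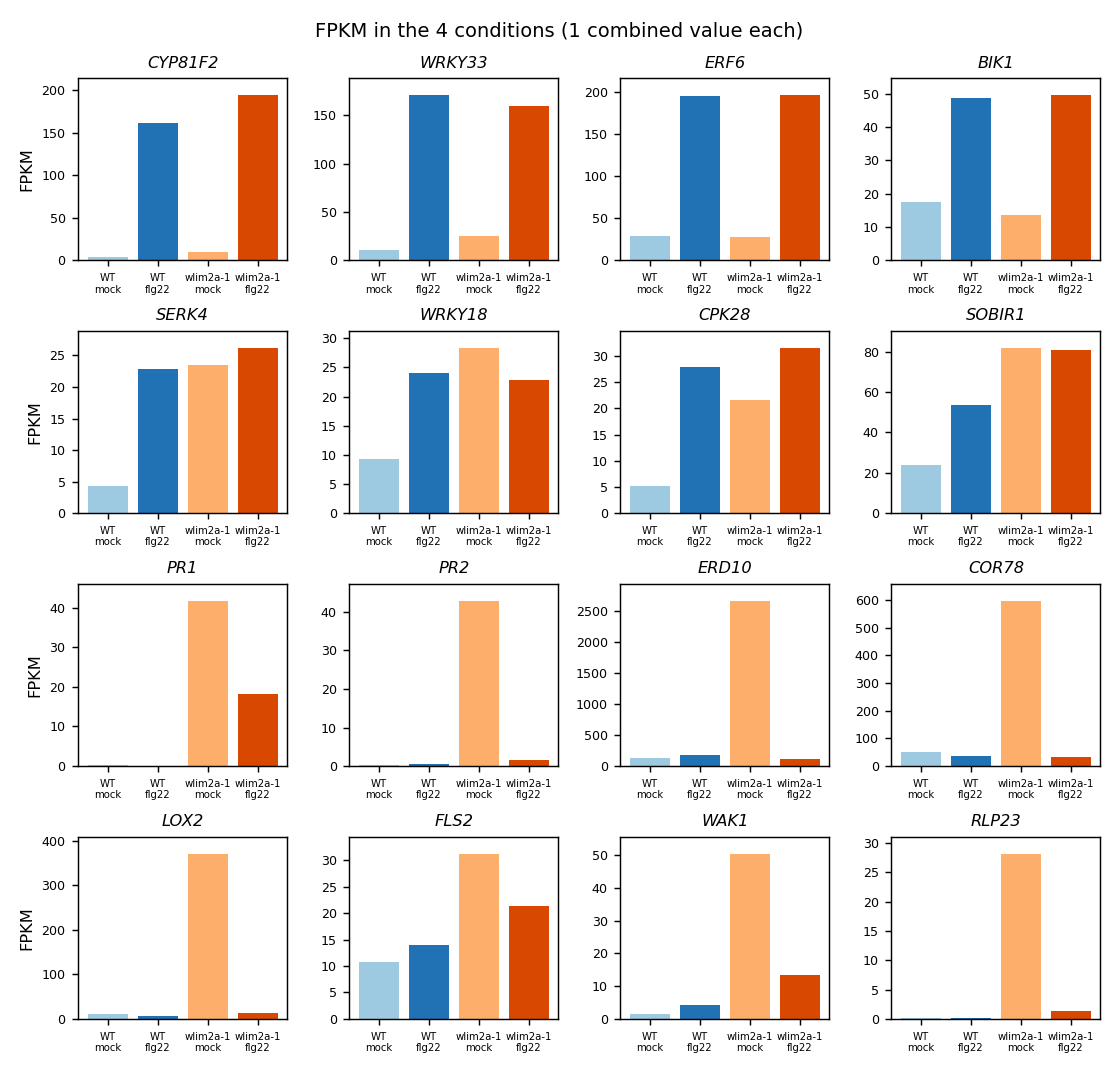
FPKM (y axis, from 0, a separate scale in each panel) of 16 genes in WT and *wlim2a-1*, each without and with flg22, with each bar the authors' single combined value. In the top row untreated *wlim2a-1* is well below WT flg22, in the next it is near or above WT flg22, and in the bottom 2 rows it is the highest of the 4 conditions.

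Downstream of the receptors, most MAPK cascade and calcium genes were within 2-fold, while 6 of 11 ubiquitin ligase genes were lower. The share of all genes compared was 4.86% lower and 4.88% higher, so all 3 lists held more lower genes than that. Of 14 MAPK cascade genes, 3 were lower (median log2 ratio −0.44). *MPK3* had 25.8 (mock) and 89.4 (flg22) FPKM in WT, against 30.7 (mock) and 79.0 (flg22) in *wlim2a-1*, while the levels of *MPK4* (16.8 FPKM against 16.7 in treated WT) and *MPK6* (17.0 FPKM against 22.0 in treated WT) were close. The MAPK kinase gene *MKK4* (−1.80) and the MPK4 substrate gene *MKS1* (−1.96) were the other lower members. Of 18 calcium and oxidative burst genes, 6 were lower (median −0.14). *RBOHD* had 8.83 FPKM in untreated and 37.0 in treated WT, and 12.9 in untreated and 45.5 in treated *wlim2a-1*, and the calmodulin-like gene *CML42* had 53.4 and 367 FPKM in WT without and with flg22, and 47.4 and 391 in *wlim2a-1* without and with it. *CPK28*, a calcium-dependent kinase that limits BIK1 accumulation, was an exception, with 5.14 (mock) and 27.8 (flg22) FPKM in WT, against 21.5 (mock) and 31.5 (flg22) in *wlim2a-1*. Its untreated mutant level was near that of WT flg22, with a log2 ratio of −0.36. Of 11 ubiquitin ligase genes, 6 were lower (median −1.15), among them *PUB22* (−2.24), *PUB23* (−2.58) and *PUB24* (−1.86), negative regulators of PTI, and *ATL31* (−3.55). The negative medians of the receptor, MAPK and calcium lists became positive, between 0.20 and 0.49, relative to *ACT2* and *UBQ10*, below the median of 0.65 over all genes on that scale. Those of the early PTI, *WRKY*, ERF and ubiquitin ligase lists stayed negative on it, between −1.36 and −0.49.

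Indole glucosinolate and camalexin genes were likewise below the WT flg22 level. Of 21 compared, 9 were lower and 1 was higher (median log2 ratio −0.96, and −0.27 relative to *ACT2* and *UBQ10*). The lower genes included the main regulator, late steps of the indole branch, the tryptophan synthesis genes *ASA1* (−1.16) and *TSB1* (−1.08), *CYP71A12* (−1.69) and the glutathione transferase gene *GSTF6* (−2.38). *MYB51*, the main regulator of the pathway in this setting, had 8.52 FPKM in untreated and 136 in treated WT, and 10.2 in untreated and 152 in treated *wlim2a-1*. The methyltransferase genes *IGMT1* (17.8 FPKM against 109 in treated WT) and *IGMT2* (4.50 FPKM against 154 in treated WT) act after CYP81F2, and they are near copies whose reads can be shared. *PEN2*, the myrosinase that activates the products, had 26.6 and 149 FPKM in WT without and with flg22, and 42.0 and 174 in *wlim2a-1* without and with it, so that untreated *wlim2a-1* was slightly above WT mock. Core steps were within 2-fold, as for *CYP79B2* (39.6 FPKM against 49.8 in treated WT, log2 ratio −0.32) and *CYP83B1* (198.1 FPKM against 343 in treated WT, −0.79). The transporter gene *PEN3* was intermediate, with 113 (mock) and 515 (flg22) FPKM in WT, against 265 (mock) and 600.2 (flg22) in *wlim2a-1*. *CYP71A13*, of camalexin synthesis, was the member above WT flg22, at 2.03 FPKM against 0.188, a low level. Its relative *CYP71A12* differed in the opposite direction, and whether reads were shared between these genes was not tested.

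**Figure D4:**
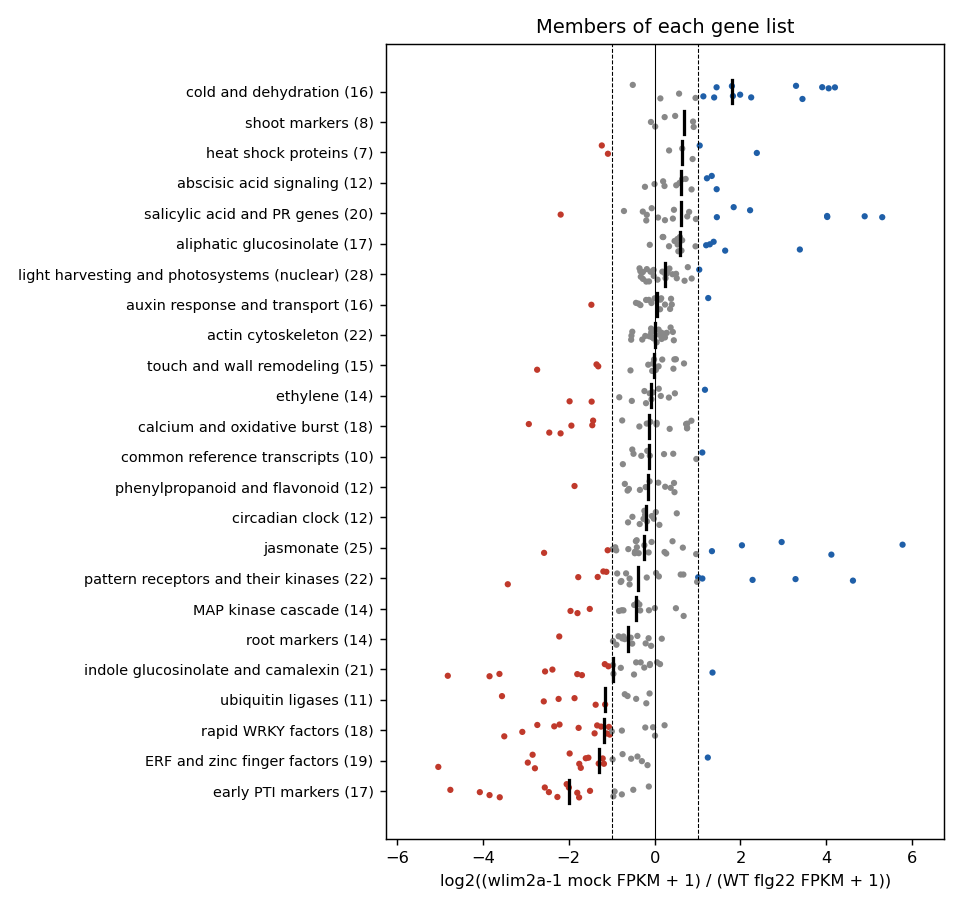
log2 ratio of *wlim2a-1* mock over WT flg22 (x axis) for the members of 24 gene lists (number compared in parentheses), with red points at least 2-fold lower, blue points at least 2-fold higher, gray points within 2-fold, and a black bar at the list's median. Members listed at 0 in either condition are not drawn but count in the bars. The bar of the shoot markers, at 0.69, thus includes *RBCS1A* and *LHCB1.3* (0.36 without them). Early PTI markers lie at the low end (median −1.996) and cold and dehydration genes at the high end (median 1.81).

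Several SA and PR genes were higher in untreated *wlim2a-1* than after flg22 in WT. Of 20 compared, 7 were higher and 1 was lower (median log2 ratio 0.61). The medians were 0.70 in WT flg22 over WT mock and 1.24 in *wlim2a-1* mock over WT mock. *PR1* had 0.257 FPKM in untreated and 0.0857 in treated WT, and 41.8 in untreated and 18.24 in treated *wlim2a-1*. Both WT conditions were near 0 and both mutant conditions were not. *PR2*, a glucanase, had 0.301 and 0.479 FPKM in WT without and with flg22, and 42.9 and 1.65 in *wlim2a-1* without and with it, and *PR5*, a thaumatin-like protein, had 1.83 (mock) and 1.52 (flg22) FPKM in WT, against 39.9 (mock) and 5.09 (flg22) in *wlim2a-1*. For these 2 genes untreated *wlim2a-1* was far above the other 3 conditions, and the treated mutant was above both WT conditions, with log2 ratios to WT mock of 1.03 for *PR2* and 1.11 for *PR5*. *AED1*, a protease that limits systemic immunity, had 19.01 FPKM against 0.236 in treated WT. *SARD1*, a transcription factor that drives SA synthesis, had 0.168 FPKM in untreated and 0.884 in treated WT, and 4.15 in untreated and 1.40 in treated *wlim2a-1*, whereas its relative *CBP60G* had 1.92 and 15.6 FPKM in WT without and with flg22, and 2.64 and 21.1 in *wlim2a-1* without and with it. These related regulators thus differed in opposite directions from WT flg22, by 1.45 and −2.19.

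The synthesis gene *ICS1* and the receptor genes *NPR1* and *NPR3* were within 2-fold of WT flg22, unlike *PR1*, *PR2* and *PR5*. The level of *ICS1* was near the minimum of 1 FPKM, where the FPKM + 1 scale compresses differences. *ICS1*, of SA synthesis, had 0.825 (mock) and 0.768 (flg22) FPKM in WT, against 1.38 (mock) and 0.967 (flg22) in *wlim2a-1*, and the SA receptor gene *NPR1* had 15.95 FPKM in untreated and 24.4 in treated WT, and 25.8 in untreated and 28.8 in treated *wlim2a-1*, both within 2-fold. *EDS1* and *PAD4*, which act together upstream of SA, had log2 ratios of −0.18 and −0.27. *NPR3*, another SA receptor gene, had 6.50 and 15.4 FPKM in WT without and with flg22, and 8.996 and 17.7 in *wlim2a-1* without and with it. *ACD6*, an ankyrin protein that promotes SA defense, had 2.59 (mock) and 13.0 (flg22) FPKM in WT, against 26.3 (mock) and 25.4 (flg22) in *wlim2a-1*, so that WT flg22 was intermediate. *WRKY70* had 17.4 FPKM against 12.5 in treated WT and 5.53 in WT mock. *PCC1* and *LURP1*, which are known to rise in infected leaves and were among the 15 highest genes ranked, had 59.1 FPKM against 0.120 in treated WT and 49.7 FPKM against 0.539 in treated WT.

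Jasmonate genes were mixed, with 5 of 25 higher and 2 lower (median log2 ratio −0.24, and 0.30 relative to *ACT2* and *UBQ10*). *LOX2*, the chloroplast lipoxygenase of jasmonate synthesis, had 10.4 FPKM in untreated and 5.79 in treated WT, and 371 in untreated and 12.9 in treated *wlim2a-1*. Its level in untreated *wlim2a-1* was far above the other 3 conditions, and its log2 ratio of 5.77 was the highest of any nuclear gene ranked. The cyclase gene *AOC2* was higher (181 FPKM against 43.5 in treated WT), and the lipoxygenase gene *LOX4* was lower (7.99 FPKM against 52.5 in treated WT). *AOC2* has near copies, and *AOC1* had 22.9 FPKM against 46.1 in treated WT. Of the 8 *JAZ* repressor genes in the list, *JAZ1* was lower (16.7 and 124 FPKM in WT without and with flg22, and 57.5 and 205 in *wlim2a-1* without and with it) and the other members were within 2-fold. Among these, *JAZ6* was intermediate between the WT conditions (8.97 (mock) and 37.3 (flg22) FPKM in WT, against 27.3 (mock) and 43.9 (flg22) in *wlim2a-1*), and *JAZ2* (12.9 FPKM against 10.8 in treated WT) and *JAZ7* (4.45 FPKM against 3.52 in treated WT) were slightly above both. Jasmonate output genes split, with *PDF1.2* (13.7 FPKM against 0.890 in treated WT) and *CORI3* (24.3 FPKM against 0.459 in treated WT) higher and *VSP2* (20.5 FPKM against 27.6 in treated WT) within 2-fold. In the ethylene list of 14, 1 gene was higher and 2 were lower. The synthesis gene *ACS6*, whose product is a substrate of MPK3 and MPK6, had 8.16 FPKM in untreated and 26.1 in treated WT, and 5.87 in untreated and 28.7 in treated *wlim2a-1*.

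Most cold and dehydration genes were above both WT conditions in untreated *wlim2a-1*. Of 16 compared, 12 were higher in untreated *wlim2a-1* and none was lower (median log2 ratio 1.81). In WT flg22 over WT mock none of 15 passed 2-fold (median −0.40), and in *wlim2a-1* mock over WT mock 11 of 16 were higher (median 1.34). *ERD10*, a dehydrin that protects cells in the cold, had 137 and 177 FPKM in WT without and with flg22, and 2664 and 113 in *wlim2a-1* without and with it. *COR78*, also called *RD29A*, had 51.5 (mock) and 35.0 (flg22) FPKM in WT, against 597 (mock) and 33.6 (flg22) in *wlim2a-1*, and *ERD7* had 30.6 FPKM in untreated and 36.1 in treated WT, and 402 in untreated and 33.6 in treated *wlim2a-1*. In each case the other 3 conditions were close together and untreated *wlim2a-1* alone was high. *COR15A* (187 FPKM against 18.16 in treated WT) and *COR15B* (237 FPKM against 49.1 in treated WT) were higher too, but they are near copies whose reads can be shared. *RAB18*, a dehydrin of the abscisic acid (ABA) response, had 9.14 and 5.46 FPKM in WT without and with flg22, and 118 and 38.8 in *wlim2a-1* without and with it. The cold regulators *CBF1*, *CBF2* and *CBF3* were below 1 FPKM in every condition. *ERD14* (834 FPKM against 760.1 in treated WT) and *LTI30* (233 FPKM against 331 in treated WT) were the most abundant members within 2-fold. Of 12 ABA signaling genes, 3 were higher and none was lower (median 0.61), including *NCED3*, the key enzyme of ABA synthesis under drought, with 1.47 (mock) and 0.973 (flg22) FPKM in WT, against 4.37 (mock) and 0.917 (flg22) in *wlim2a-1*.

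Aliphatic glucosinolate genes, which draw on methionine instead of tryptophan, were on the opposite side from the indole branch. Of 17 compared, 5 were higher and none was lower (median log2 ratio 0.59). *CYP79F1*, which starts the core pathway, had 4.21 FPKM in untreated and 1.08 in treated WT, and 20.7 in untreated and 2.44 in treated *wlim2a-1*, and *CYP83A1*, which acts next, had 54.5 and 39.2 FPKM in WT without and with flg22, and 125 and 41.3 in *wlim2a-1* without and with it. WT flg22 was the lowest of the 4 conditions for both. Their regulator *MYB28* was within 2-fold, with 37.4 FPKM against 23.9 in treated WT.

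Chloroplast-encoded loci made up 9 of the 15 highest genes ranked. Of 78 compared, 65 were higher and 3 were lower (median log2 ratio 2.52), and 12 of 56 mitochondria-encoded loci were higher and 2 were lower (median 0.56). Over the 70 chloroplast loci above 0 in all 4 conditions, the median level was 6.24 FPKM in untreated and 5.38 in treated WT, and 38.6 in untreated and 7.76 in treated *wlim2a-1*, so that the treated mutant was near WT. Nuclear genes for the photosystems, light harvesting and Rubisco did not share this difference, with 3 of 28 higher, of which 2 were *RBCS1A* and *LHCB1.3*, and a median of 0.25.

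Actin cytoskeleton genes were within 2-fold, and so were most common reference transcripts and 17132 of all 18981 genes compared. With so few genes past 2-fold, a short list with none past it is not set apart from the other genes. None of 22 actin cytoskeleton genes passed 2-fold (median log2 ratio 0.01, range −0.55 to 0.45), including the LIM family members *WLIM1* (41.5 FPKM against 48.4 in treated WT) and *WLIM2B* (46.8 FPKM against 68.8 in treated WT). None of 12 circadian clock genes passed it (median −0.20, and 0.49 relative to *ACT2* and *UBQ10*). The reference genes of the study, *ACT2* (292 FPKM against 419 in treated WT) and *UBQ10* (994 FPKM against 1659.8 in treated WT), were both lower by less than 2-fold. Of the 10 common reference transcripts, AT2G28390 was higher (15.3 FPKM against 6.53 in treated WT, log2 ratio 1.11, and 0.95 after centering by gene length), *PP2AA3* had a log2 ratio of 0.97, and the range was −0.74 to 1.11. The auxin transporter gene *PIN7* had 14.3 (mock) and 9.64 (flg22) FPKM in WT, against 24.3 (mock) and 10.8 (flg22) in *wlim2a-1*, and the auxin-responsive *IAA2* had 95.5 FPKM in untreated and 315 in treated WT, and 113 in untreated and 289 in treated *wlim2a-1*. Of 15 touch and wall genes, 3 were lower, including *TCH3*, which encodes a calmodulin-like protein, with 99.8 and 1096 FPKM in WT without and with flg22, and 441 and 1066 in *wlim2a-1* without and with it. *IRT1*, the iron transporter of the root epidermis, was the only root marker past 2-fold, with 25.2 (mock) and 40.9 (flg22) FPKM in WT, against 7.999 (mock) and 20.99 (flg22) in *wlim2a-1*.

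Among the 15 lowest genes ranked, all were high in both treated conditions and low in both mock conditions. The F-box genes *PP2-B13* and *PP2-B14*, next to each other on chromosome 1, were the lowest, with 1.101 FPKM in untreated and 225 in treated WT, and 2.82 in untreated and 308 in treated *wlim2a-1* for *PP2-B13* and 0.868 and 113 FPKM in WT without and with flg22, and 1.45 and 192 in *wlim2a-1* without and with it for *PP2-B14*. The metacaspase gene *MC8* had 1.12 FPKM against 52.8 in treated WT, and *GAD4*, a glutamate decarboxylase, had 2.15 FPKM against 65.5 in treated WT. The ranking itself set their low level in untreated *wlim2a-1* (at most 11.3 FPKM) and their high level in WT flg22 (31.4 to 225.0 FPKM). Only the WT mock and *wlim2a-1* flg22 values of these 15 are free of it. Outside the 15, the kinase gene *AGC2-1*, which responds to oxidative signals, had 1.90 (mock) and 14.6 (flg22) FPKM in WT, against 2.24 (mock) and 17.56 (flg22) in *wlim2a-1*.

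The log2 ratio also went with gene length, as given by RefSeq for 18786 of the genes compared. The median length was 2878 bases for the higher genes, 1635.5 for the lower genes and 2342 for all. From the shortest to the longest of 10 length classes the median log2 ratio ran from −0.23 to 0.40, and the numbers of higher and lower genes from 109 and 262 to 192 and 16. In *wlim2a-1* mock over WT mock it ran from −0.21 to 0.34. It ran only from 0.00 to −0.08 in WT flg22 over WT mock and from −0.12 to 0.06 in *wlim2a-1* flg22 over WT flg22, which places the larger trend in the column of *wlim2a-1* mock. With the log2 ratios centered within length classes, a comparison added after the data were seen, 856 genes were higher and 812 were lower. The median was −1.90 for early PTI markers, 1.79 for cold and dehydration genes and −0.997 for ubiquitin ligases, which came within 2-fold. Of 155 named genes 9 came within 2-fold, namely *FLS2*, *LYK5* and AT2G28390 among the higher genes and *WRKY15*, *WRKY75*, *ERF13*, *ATL2*, *HSP17.6A* and *HSFA7A* among the lower genes. The part of gene length in the other results was not tested.

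**Figure D5:**
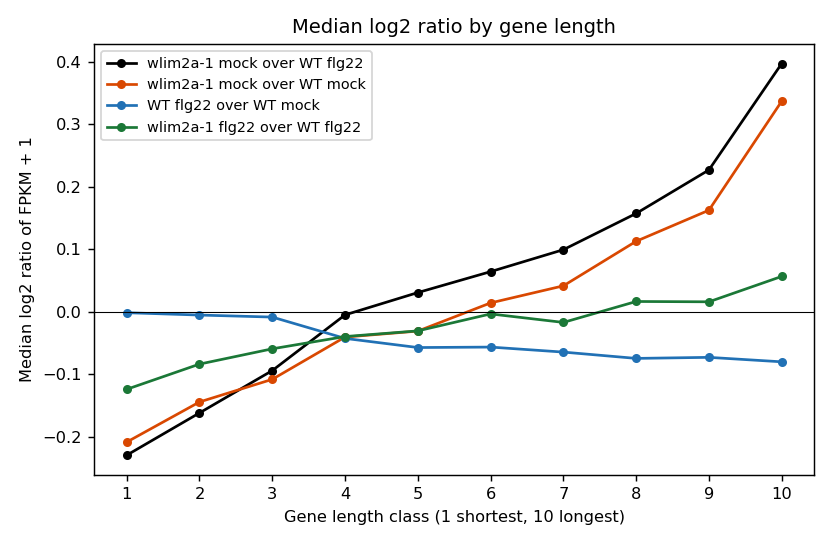
Median log2 ratio of FPKM + 1 (y axis) in 10 classes of RefSeq gene length (x axis, shortest to longest) for 4 pairs of conditions. The ratios with *wlim2a-1* mock in the numerator rise with length, from −0.23 to 0.40 over WT flg22 and from −0.21 to 0.34 over WT mock, and the other pairs change by less.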

How the data were processed

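RNA-Seq was performed on 12 samples, 3 in each of 4 conditions, and the groups were taken from the sample titles. The submitters' processing notes and the study's methods name FastQC 0.11.5, TopHat2 2.1.1, Cufflinks, limma, Cuffdiff 2.2.1 and the TAIR10 genome. The FPKM values were deposited by the authors as 1 value per gene and condition, and which program gave them is not stated. The methods give quartile normalization for Cuffdiff, so scaling to the same upper quartile may repeat a step already taken. No source used here gives the annotation version. The labels describe random hexamer priming by a service provider and the methods a stranded mRNA kit, which was not reconciled. The depth obtained per sample is unknown. RefSeq (TAIR10.1) gave symbols, gene lengths and neighbors, with 18798 of 18981 compared loci matched, and no coordinates are given.

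With 1 value per condition, a fold rule was used without a test: log2 ratios of FPKM + 1, a minimum of 1 FPKM in either condition and a 2-fold threshold (Python 3.11.15, pandas 2.3.3, numpy 2.4.6, matplotlib 3.10.9). A run of the rule on simulated columns held only 4-fold changes in abundant genes. It does not check the rule on low values, on changes near 2-fold or against the spread of replicates. The members and the 25 lists (420 loci) were chosen with earlier results of these data known. Genes named were the 15 highest and 15 lowest ranked (at least 10 FPKM in the higher condition and above 0 in all 4), list members past 2-fold with members within it for contrast, and genes named in the study. Other list members named were chosen after their values were seen. RefSeq did not pair the symbol of 6 list entries with the locus, and AT1G26380, one of these, is printed as its locus. A planned comparison of promoter motifs was not analysed here. Alternatives were other pseudocounts, thresholds, minima and scalings, leaving out genes listed at 0 and, added after the data were seen, centering by gene length.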

Additional observations from a re-analysis of the deposited data

How the results depend on the processing

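Higher and lower genes numbered 2776 and 2166 at 1.5-fold, 166 and 246 at 4-fold, and 395 and 591 with a pseudocount of 5. With a pseudocount of 0.1, 1392 were higher. Relative to *ACT2* and *UBQ10*, 4394 were higher and 405 lower. The other scalings, the other minima, leaving out genes listed at 0 and centering by gene length kept both counts within 1.5 times. The percent of the lower genes that were higher in *wlim2a-1* flg22 than in WT mock was 55.8 and 70.1 with pseudocounts of 0.1 and 5, 48.2 and 80.5 at 1.5-fold and 4-fold in both pairs of conditions, 76.8 relative to *ACT2* and *UBQ10*, 67.5 with equal sums without AT2G01021 and organelle loci, and 69.5 after centering by gene length. The 87.4% given above for the genes at least 4-fold lower kept 2-fold for *wlim2a-1* flg22 over WT mock. The percent of the higher genes that were higher there was 5.57 with a pseudocount of 5 and 1.46 relative to *ACT2* and *UBQ10*. The causes were not tested. None of 27 list medians and none of 155 named genes went from 2-fold in one direction to 2-fold in the other under any alternative run. Those within 2-fold with the values as deposited, most of the list medians, could not do so by this definition. Signs did change relative to *ACT2* and *UBQ10*, as for the ethylene list (−0.09 to 0.51), while the median of all genes rose to 0.65. Of the 155 genes, 69 came within the threshold at 4-fold, 29 with a pseudocount of 5, 9 after centering by gene length and 27 relative to *ACT2* and *UBQ10*, all 27 of these lower genes such as *BAK1* (−0.53), *MPK3* (−0.83) and *RBOHD* (−0.79). No paired analysis was possible because the replicates were combined before deposition, and leaving out single replicates could not be run for the same reason. Without values per replicate, no difference here can be set against the spread between seedlings.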

Other observations

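Families grouped by RefSeq symbol, chosen after their values were seen, add further members but overlap with the lists. Of 39 *RLP* genes compared, which encode receptor-like proteins, 9 (23.1%) were higher in untreated *wlim2a-1* than in WT flg22 and 3 (7.69%) were lower. Over all genes compared, 4.88% were higher and 4.86% were lower. Besides *RLP23*, *RLP32* had 3.20 FPKM in untreated and 2.33 in treated WT, and 23.5 in untreated and 2.79 in treated *wlim2a-1*, and *RLP33* had 3.37 and 6.07 FPKM in WT without and with flg22, and 20.9 and 7.14 in *wlim2a-1* without and with it. *RLP12* (9.63 FPKM against 27.4 in treated WT), *RLP30* (2.66 FPKM against 6.78 in treated WT) and *RLP52* (3.43 FPKM against 8.66 in treated WT) were the lower members. Among 31 *CRK* genes, for cysteine-rich receptor kinases, 7 (22.6%) were higher and 4 (12.9%) were lower. *CRK6* had 0.0592 (mock) and 0.0991 (flg22) FPKM in WT, against 7.54 (mock) and 0.352 (flg22) in *wlim2a-1*, whereas *CRK11* had 1.75 FPKM in untreated and 21.3 in treated WT, and 7.61 in untreated and 33.2 in treated *wlim2a-1*, so that the former was high in untreated *wlim2a-1* and the latter in the treated conditions. Genes of the *CRK* cluster on chromosome 4 are similar in sequence, and their reads can be shared. Of 47 *WRKY* genes, 14 (29.8%) were lower and only *WRKY19* (9.57 FPKM against 3.28 in treated WT) was higher. Of 24 *ERF* genes, 13 (54.2%) were lower. Most of these lower *WRKY* and *ERF* genes were already counted in the lists. The glutathione transferase genes *GSTU11* (−3.28) and *GSTU12* (−3.83), next to each other, were lower, while *GSTU20* was higher (80.4 and 37.8 FPKM in WT without and with flg22, and 114 and 49.8 in *wlim2a-1* without and with it).

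Outside the lists, several genes were in untreated *wlim2a-1* near their WT flg22 level and above WT mock, and they were picked for this pattern. *HR4*, a homolog of the mildew resistance gene *RPW8*, had 53.8 (mock) and 342 (flg22) FPKM in WT, against 469 (mock) and 425 (flg22) in *wlim2a-1*. *AGP5*, for an arabinogalactan protein, had 3.23 FPKM in untreated and 37.1 in treated WT, and 33.3 in untreated and 33.3 in treated *wlim2a-1*, and *BCS1*, also called *OM66*, for a mitochondrial outer membrane protein, had 4.84 and 29.7 FPKM in WT without and with flg22, and 28.3 and 27.9 in *wlim2a-1* without and with it. *CRCK2*, for a calmodulin-binding kinase, had 24.7 (mock) and 56.2 (flg22) FPKM in WT, against 57.7 (mock) and 61.2 (flg22) in *wlim2a-1*. The calcium pump gene *ACA1* had 9.67 FPKM in untreated and 25.2 in treated WT, and 28.9 in untreated and 25.9 in treated *wlim2a-1*. In all 5, WT mock was the lowest condition.

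In all, 34 genes, *RBCS1A* and *LHCB1.3* among them, were listed at exactly 0 in one of the 2 conditions and at 10 FPKM or more in the other, 16 at 0 in WT flg22 and 18 at 0 in *wlim2a-1* mock. Of these, *CYP82C3* had 11.1 FPKM in WT flg22 and 33.4 in *wlim2a-1* flg22, against 0 in untreated *wlim2a-1* and 0.0192 in untreated WT. AT1G74929 was listed at 4016 and 4102 FPKM in WT mock and WT flg22 and at 0 in both mutant conditions.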
